A study of Mus musculus with 12 samples.

Results

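The genes described here are 10 of the acute-phase genes of the mouse: the serum amyloid A genes Saa1, Saa2, Saa3 and Saa4, the orosomucoid genes Orm1, Orm2 and Orm3, the lipocalin gene Lcn2, and the pentraxin genes Apcs and Crp. They were chosen by name, and the 10 symbols matched 10 of the 53715 genes in the count table. Their RNA was measured in 3 groups of liver cells of the strain C57BL/6JOlaHsd, with 4 libraries each. Hepatoblasts, the embryonic progenitors of hepatocytes and bile duct cells, were taken from pooled embryonic livers at E14.5 by magnetic sorting for the surface protein Dlk1, and their RNA was isolated at once. Diff. hepatocytes were such Dlk1+ hepatoblasts after 4 days of culture on fibronectin in a medium with serum, insulin, transferrin, selenium, dexamethasone (a synthetic glucocorticoid) and Matrigel. Mature hepatocytes were isolated from male mice of 8 to 12 weeks by collagenase perfusion of the liver and were not cultured. The groups thus differed in age, in isolation and in culture at the same time, and these cannot be told apart. The sex of the embryos is not stated in the sources used here, so a part of sex cannot be told apart either.

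The acute-phase response is the change in the plasma proteins that the liver secretes after injury or infection. Interleukin-6 and its relatives act through the shared receptor chain gp130 and the transcription factor STAT3, interleukin-1 and tumor necrosis factor act through NF-kB, and glucocorticoids and C/EBP factors act together with both. In the mouse, Saa1, Saa2, the Orm genes and Apcs are known as strongly inducible liver genes, Saa3 and Lcn2 are also made by macrophages, neutrophils or epithelia, Saa4 is known as a constitutive member, and Crp, the classical human acute-phase protein, is known to respond weakly.

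Between 19581551 and 25216977 reads were counted on genes per library. Levels are given as CPM, the counts scaled to a library of fixed size, after correction of the library sizes by TMM, and levels of different genes are compared only per kilobase of the principal transcript (RPKM). Genes count as called where the quasi-likelihood test of edgeR gave a p below 0.01 after Benjamini-Hochberg adjustment over 17779 tested genes and the log2 fold change exceeded 1 in either direction. The hepatocyte gene Alb was abundant in all groups, with means of 37757 CPM in the hepatoblast libraries, 40226 CPM in the Diff. libraries and 95187 CPM in mature hepatocytes. Dlk1 had 3523, 94.2 and 4.19 CPM in the same order. Of 7 markers of adult hepatocytes, 4 were called higher in Diff. hepatocytes than in hepatoblasts (Cps1, Arg1, Pck1 and Cyp2f2) and 5 lower than in mature hepatocytes. Cps1 had 21.98 CPM, 5920 CPM and 6066 CPM in hepatoblasts, Diff. and mature hepatocytes, whereas Cyp2e1 had 2.82, 3.24 and 6504 CPM. Hepatoblast replicate 1 held the highest summed level of macrophage (440.2 CPM), neutrophil (472 CPM) and erythroid (2754 CPM) markers of its group, where the other 3 libraries had 103 to 127, 32.9 to 51.4 and 338 to 559 CPM. The labels do not say which libraries came from 1 isolation, so the p-values measure the spread between these libraries. Scaling by library totals in place of TMM moved the median log2 fold change of all genes by −0.32 in Diff. hepatocytes against hepatoblasts, by −0.85 in mature hepatocytes against hepatoblasts and by 0.53 in Diff. hepatocytes against mature hepatocytes. It also moved the share of higher genes among those called from 51.5% to 35.4%, from 44.9% to 20.2% and from 56.4% to 75.6%, respectively.

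The members split into those that were high in the cultured cells and those that were high in the adult cells. Saa3, Lcn2 and Apcs had their highest level in Diff. hepatocytes. Saa1, Saa2, Saa4, Orm1, Orm2 and Orm3 had theirs in mature hepatocytes, and Crp had similar levels in both. Together, the 10 genes took 0.0214% to 0.0295% of the counts of a library in hepatoblasts, 0.176% to 0.308% in Diff. hepatocytes and 0.0875% to 0.255% in mature hepatocytes. In bulk RNA, fewer expressing cells and less RNA per cell cannot be told apart.

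**Figure D1:**
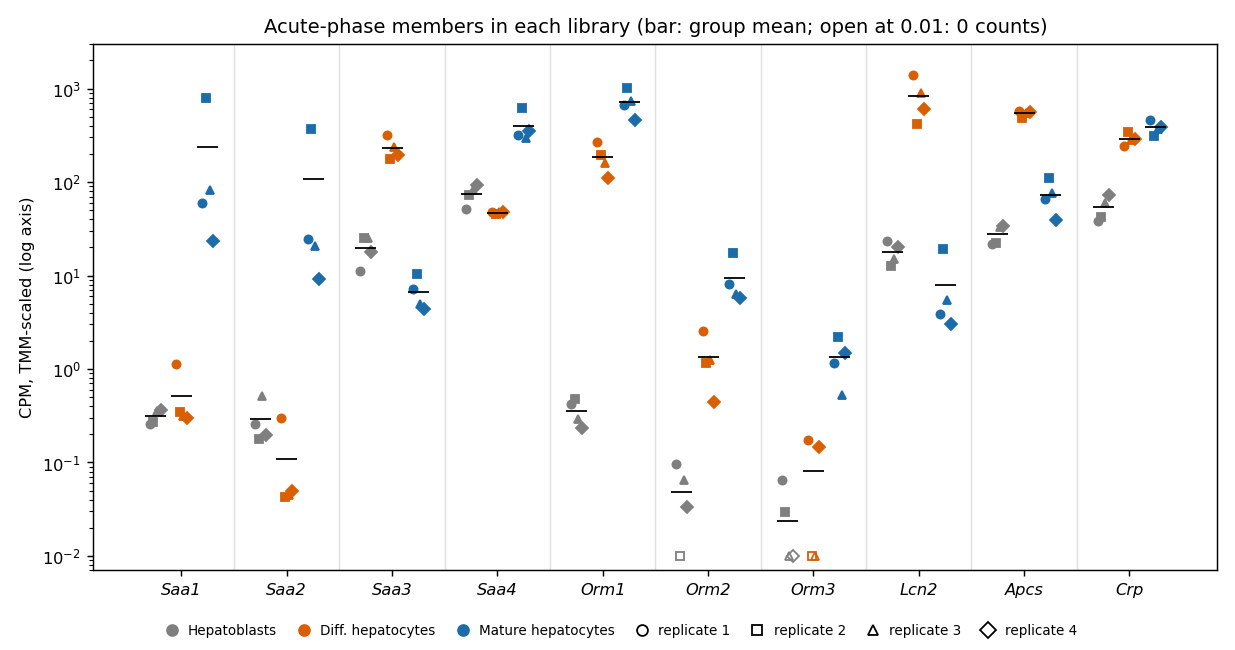
CPM of the 10 members in each of the 12 libraries on a log axis, with color for the group, marker shape for the replicate and a bar for the group mean, and open symbols at 0.01 stand for 0 counts. Saa3, Lcn2 and Apcs are highest in Diff. hepatocytes, whereas Saa1 and Saa2 lie at or under 1.12 CPM in both embryonic groups and spread from 23.3 to 789 CPM and from 9.19 to 373 CPM in mature hepatocytes.

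Diff. hepatocytes against hepatoblasts sets cultured cells against freshly sorted ones, and markers of other cell types differed too. The 8 erythroid markers summed to 338 to 2754 CPM in the hepatoblast libraries and 6.8 to 26.55 CPM in the Diff. libraries. The 6 endothelial markers summed to 32.2 to 125.7 and 4.75 to 9.86 CPM. Rises and falls in culture, as given below, are differences in this comparison. In it, 6 members were called higher (Saa3, Orm1, Orm2, Lcn2, Apcs and Crp), 0 lower and 4 were not called. Over all tested genes, 14.9% were called higher and 14% lower in this comparison. At an unadjusted p under 0.05, edgeR had 1 member lower, Saa4, and DESeq2 called 0 members lower. The libraries of both groups did not overlap for 7 of the 10 members, beside 57.5% of all tested genes. The median log2 fold change of the members was 2.99, and that of all tested genes was −0.01.

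In mature hepatocytes against hepatoblasts, the comparison of adult with embryonic cells, 8 members were called higher, 1 lower (Saa3) and 1 was not called (Lcn2). The background was 20.1% higher and 24.7% lower. The groups did not overlap for 9 of 10 members, beside 66% of all tested genes, and the median log2 fold change was 4.18 beside −0.15 over all genes. In Diff. hepatocytes against mature hepatocytes, which sets the cultured cells against their adult counterpart, 3 members were called higher (Saa3, Lcn2 and Apcs), 6 lower and 1 was not called (Crp). The background was 20.2% higher and 15.6% lower. The libraries did not overlap for 9 of 10 members, beside 61.6% of all tested genes, and the median was −2.38 beside 0.09. The 3 comparisons share their libraries, so their values are set side by side and are not independent. All 10 members passed the filter of more than 10 counts in any library. Orm3 passed it only through the mature libraries, and Orm2 only through the Diff. and mature libraries, so that a difference was built into their selection.

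**Figure D2:**
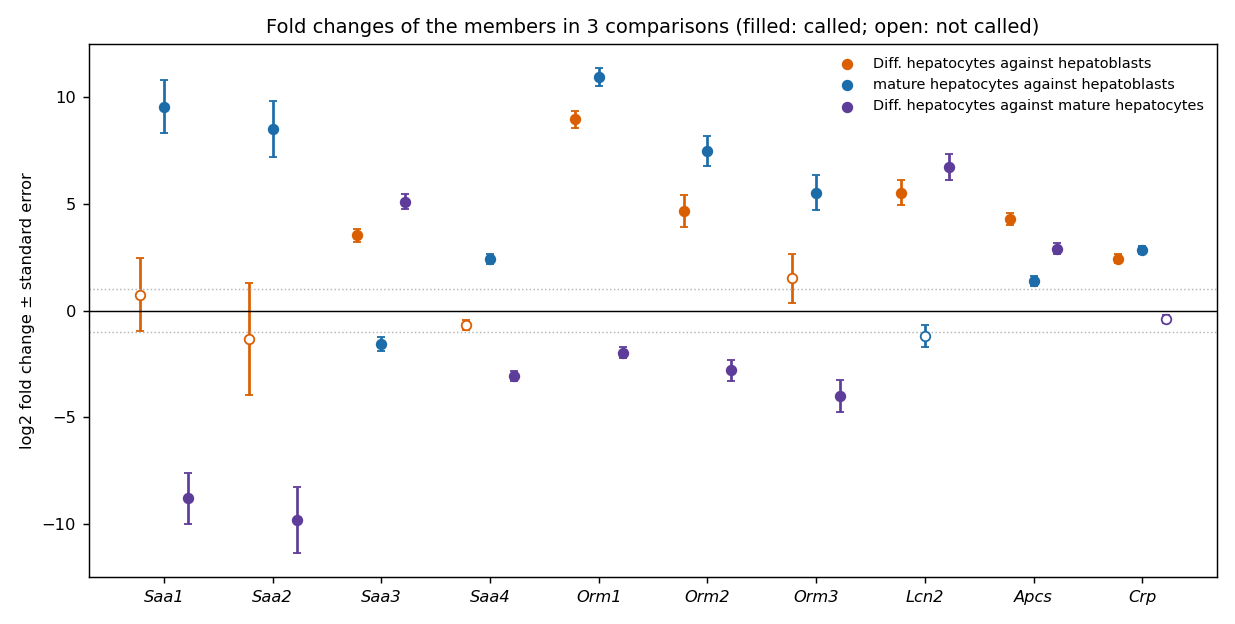
Log2 fold change of each member with its standard error from edgeR in the 3 comparisons named in the legend, with filled points for called and open points for not called genes. Saa3, Lcn2 and Apcs lie above 0 in Diff. hepatocytes against mature hepatocytes (5.11, 6.72 and 2.90), and Saa1 and Saa2 have the largest falls (−8.81 and −9.83).

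The 4 serum amyloid A genes lie within one stretch of chromosome 7 of GRCm38, with Saa3 (ENSMUSG00000040026) at 46711998 to 46715700, Saa4 (ENSMUSG00000040017) at 46727998 to 46732603, Saa1 (ENSMUSG00000074115) at 46740497 to 46742980 and Saa2 (ENSMUSG00000057465) at 46751790 to 46754313. Saa2 is on the plus strand and the other 3 are on the minus strand, and each principal transcript has 4 exons. Because 3 different patterns of RNA were measured within this stretch, the promoter sequences of the 4 genes are shown. They are from RefSeq (GRCm38.p6), 250 bases before to 50 bases after each start, 5′ to 3′ on the strand of the gene. Capitals mark matches to the C/EBP motif TTNNGNAA on either strand. Saa1 is chr7:46742931-46743230, minus strand, Saa2 is chr7:46751583-46751882, plus strand, Saa3 is chr7:46715627-46715926, minus strand and Saa4 is chr7:46732554-46732853, minus strand.
Saa1: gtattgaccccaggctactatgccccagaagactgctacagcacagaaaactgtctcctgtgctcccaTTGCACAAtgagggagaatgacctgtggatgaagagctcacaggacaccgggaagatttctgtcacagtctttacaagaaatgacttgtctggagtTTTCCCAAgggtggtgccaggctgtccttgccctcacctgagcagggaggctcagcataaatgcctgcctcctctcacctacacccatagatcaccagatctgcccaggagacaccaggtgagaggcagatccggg
Saa2: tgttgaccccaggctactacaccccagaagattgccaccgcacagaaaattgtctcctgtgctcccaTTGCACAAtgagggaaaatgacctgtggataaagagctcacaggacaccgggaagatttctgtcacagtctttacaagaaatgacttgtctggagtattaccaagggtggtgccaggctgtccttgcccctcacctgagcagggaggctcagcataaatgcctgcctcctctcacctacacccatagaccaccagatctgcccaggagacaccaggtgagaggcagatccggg
Saa3: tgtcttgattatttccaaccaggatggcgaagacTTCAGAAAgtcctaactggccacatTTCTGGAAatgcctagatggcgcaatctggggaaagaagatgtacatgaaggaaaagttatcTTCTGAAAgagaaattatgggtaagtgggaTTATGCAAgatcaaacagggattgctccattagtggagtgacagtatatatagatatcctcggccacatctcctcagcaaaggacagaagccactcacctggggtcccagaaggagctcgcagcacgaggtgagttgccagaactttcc
Saa4: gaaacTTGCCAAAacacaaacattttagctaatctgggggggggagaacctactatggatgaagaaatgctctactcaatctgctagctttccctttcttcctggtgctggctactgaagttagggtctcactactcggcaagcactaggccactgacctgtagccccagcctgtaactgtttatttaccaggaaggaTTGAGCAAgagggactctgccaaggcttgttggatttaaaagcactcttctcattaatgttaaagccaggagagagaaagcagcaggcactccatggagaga

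Promoters were found for 9 of the 10 members, with none for Orm1. In a global alignment, the windows of Saa1 and Saa2 were identical in 95.3% of the columns, whereas those of Saa1 and Saa3 were identical in 54.2%, as were those of Saa1 and the unrelated Lcn2. The C/EBP motif matched in 8 of the 9 windows and in 40.7% of all 32851 promoters of this length. There were 4 matches in Saa3, 2 each in Saa1, Saa4 and Orm2, and 1 each in Saa2, Orm3, Lcn2 and Crp. The STAT motif TTCNNNGAA matched in 1 window, that of Apcs, and in 8.3% of all promoters. The NF-kB consensus matched in 0 of the 9 windows and in 4.51% of all promoters. Both strands were searched, and no matches of different motifs overlapped in these windows. A match describes letters in the window and not a bound site.

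Saa1 and Saa2 encode the inducible, circulating serum amyloid A proteins, which bind to high-density lipoprotein. Both were nearly silent in embryonic and cultured cells and were present in all mature libraries at very different levels. Saa1 had 8, 9, 11 and 11 counts in hepatoblast replicates 1 to 4 and 26, 8, 7 and 6 counts in Diff. hepatocytes. In mature replicates 1 to 4 it had 60.3, 789, 82.3 and 23.3 CPM. The mature libraries lay above all others, and replicate 2 lay 9.58 times above the next highest. The log2 fold change was 9.56 (standard error 1.25, adjusted p = 1.17e-05) for mature hepatocytes against hepatoblasts and −8.81 (standard error 1.21, adjusted p = 2.61e-05) for Diff. against mature hepatocytes. Without mature replicate 2 these values were 7.45 and −6.71, both still called. Without Diff. replicate 1 the second was −9.53. Diff. hepatocytes and hepatoblasts were not called different (log2 fold change 0.75, standard error 1.72, adjusted p = 0.729), and the ratio of their summed counts, 47 against 39, was 1.7 (95% exact interval 1.09 to 2.66, for counting error only). This small excess rested on Diff. replicate 1, without which the log2 fold change was 0.03.

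Saa2 had 24.3, 373, 20.7 and 9.19 CPM in mature replicates 1 to 4, again with replicate 2 far above the rest. Hepatoblasts had 8, 6, 16 and 6 counts, and Diff. hepatocytes had 7, 1, 1 and 1 counts, so that these groups overlapped in Diff. replicate 1. The gene was called higher in mature hepatocytes than in hepatoblasts (log2 fold change 8.51, standard error 1.32, adjusted p = 5.97e-05) and lower in Diff. than in mature hepatocytes (−9.83, standard error 1.53, adjusted p = 7.9e-05). Without mature replicate 2 the values were 5.94 and −7.28, and without Diff. replicate 1 the second was −11.03. DESeq2 gave no adjusted p for Saa2. Hepatoblasts had 2.56 times the counts of Diff. hepatocytes per scaled library (95% exact interval 1.24 to 5.78), but edgeR did not call this difference (log2 fold change −1.32, standard error 2.62, adjusted p = 0.686). In mature libraries, Saa2 had 25.2% to 47.2% of the counts of Saa1, and the order of the libraries by CPM was nearly the same for both genes. A share of 4.67% of the 75-base sequences of Saa1 and 1.04% of those of Saa2 occurs in the other gene.

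Saa3, the member that is known from macrophages and fat more than from liver, had the opposite pattern. It measured 11.2, 25.5, 24.9 and 17.7 CPM in the hepatoblast libraries, 316, 176, 237 and 195 CPM in the Diff. libraries and 7.20, 10.4, 4.96 and 4.35 CPM in mature hepatocytes. The 3 groups did not overlap, with every Diff. library above every hepatoblast library and every mature library at the bottom. The gene rose 11.6-fold in culture (log2 fold change 3.54, standard error 0.31, adjusted p = 5.31e-07). It was 34.4-fold higher in Diff. than in mature hepatocytes (5.11, standard error 0.34, adjusted p = 3.25e-08). Mature hepatocytes had less than hepatoblasts (−1.56, standard error 0.31, adjusted p = 0.000505), a call that glmTreat, which tests against the threshold of 1 itself, did not make (adjusted p = 0.0342). The 11 macrophage markers summed to 103 to 440.2 CPM in the hepatoblast libraries, 36.3 to 235 CPM in the Diff. libraries and 190 to 349 CPM in mature hepatocytes, with none of the 11 at 0 in a whole group. The 3 adipocyte markers, Adipoq among them, summed to at most 0.646 CPM in any library. The 7 mesenchymal markers summed to 515 to 980 CPM in the hepatoblast libraries, 852 to 1996 CPM in the Diff. libraries and 43.5 to 60.1 CPM in mature hepatocytes. The 5 bile duct markers summed to 12.9 to 15.1, 69.9 to 213 and 15.4 to 40.7 CPM in the same order. The group mean of both sums was highest in Diff. hepatocytes. The bile duct sums of the Diff. libraries lay above all others, like Saa3, whereas the mesenchymal sums of Diff. and hepatoblast libraries overlapped. The 4 Diff. libraries had the same order in the bile duct sum and in Saa3. The part of these cell types in the Saa3 level was not tested.

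Saa4 is known as the constitutive family member. It had 52.0, 71.8, 81.4 and 93.7 CPM in the hepatoblast libraries, 48.0, 45.2, 47.6 and 47.8 CPM in the Diff. libraries and 319, 625, 296 and 354 CPM in mature hepatocytes. All mature libraries were above the others, and the Diff. libraries lay just under the lowest hepatoblast library. Saa4 was 5.33-fold higher in mature hepatocytes than in hepatoblasts (log2 fold change 2.42, standard error 0.23, adjusted p = 6e-07) and lower in Diff. than in mature hepatocytes (−3.08, standard error 0.24, adjusted p = 1.24e-07). The change in culture was not called (−0.66, standard error 0.22, adjusted p = 0.0205).

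The composition of the family differed between the groups. Per length, Saa3 made up 93.4% to 95.8% of the summed Saa RPKM in Diff. hepatocytes. In hepatoblasts, Saa3 (41.1% to 56.7%) and Saa4 (42.4% to 57.7%) shared the total, with 0.545% to 0.924% for Saa1 and 0.339% to 0.933% for Saa2. In mature hepatocytes, Saa4 took 13.7% to 73.8%, Saa1 16.7% to 59.3%, Saa2 6.15% to 26.2% and Saa3 0.858% to 4.3%. The summed level was 45.9 to 85.2 RPKM in hepatoblasts, 339 to 595 RPKM in Diff. hepatocytes and 229 to 2185 RPKM in mature hepatocytes, where the highest value was that of replicate 2. The other 3 mature libraries had 229 to 317 RPKM, below every Diff. library on this length. That order did not hold over all annotated exons. On that length, the mean of Saa3 was 88.7 RPKM in Diff. hepatocytes, and that of Saa4 was 190.3 RPKM in mature hepatocytes. With the length over all annotated exons, Saa3 held 75.6% to 83.8% in Diff. hepatocytes, and in hepatoblasts it held 13.1% to 22.1%, with 77.5% to 86.5% for Saa4.

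**Figure D3:**
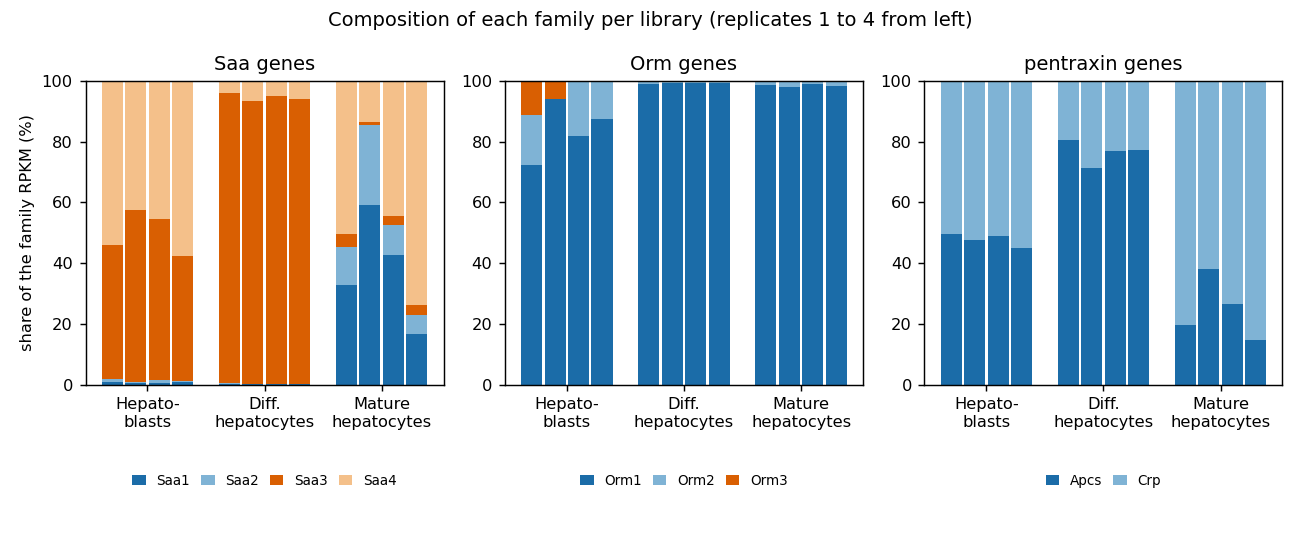
Share of the summed RPKM (percent) that each gene holds within the Saa, Orm and pentraxin families, 1 bar for each library with replicates 1 to 4 from left in each group. Saa3 fills 93.4% to 95.8% of the Saa bars in Diff. hepatocytes, Orm1 at least 98.1% of the Orm bars in Diff. and mature hepatocytes, and Apcs 71.3% to 80.5% of the pentraxin bars in Diff. hepatocytes.

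The orosomucoids, or alpha-1-acid glycoproteins, are plasma proteins that bind drugs and steroids. Their genes lie side by side on the plus strand of chromosome 4, with Orm1 (ENSMUSG00000039196) at 63344560 to 63348163, Orm3 (ENSMUSG00000028359) at 63356162 to 63359511 and Orm2 (ENSMUSG00000061540) at 63362449 to 63365878. Orm1 was near 0 in hepatoblasts and abundant in both other groups. It had 13, 16, 9 and 7 counts in hepatoblast replicates 1 to 4, 267, 195, 160 and 111 CPM in the Diff. libraries, and 669, 1015, 728 and 463 CPM in mature hepatocytes. No groups overlapped. Orm1 rose by 8.98 on the log2 scale in culture (standard error 0.40, adjusted p = 1.7e-09), and mature hepatocytes lay 10.95 above hepatoblasts (standard error 0.42, adjusted p = 9.58e-11). From summed counts, these ratios were 518 (95% exact interval 387 to 710) and 2003 (1497 to 2746). Diff. hepatocytes had 3.92-fold less Orm1 than mature hepatocytes (−1.97, standard error 0.27, adjusted p = 2.21e-05).

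Orm2 followed the same order at a much lower level, with 3, 0, 2 and 1 counts in hepatoblasts, 2.55, 1.16, 1.24 and 0.444 CPM in the Diff. libraries and 8.16, 17.6, 6.30 and 5.71 CPM in mature hepatocytes. The groups did not overlap. The ratio of summed counts was 28.9 (95% exact interval 12.9 to 80.2) for Diff. hepatocytes and 196 (89.4 to 535) for mature hepatocytes over hepatoblasts, and both were called (adjusted p = 0.000109 and 5.09e-07). Orm2 passed the filter only through the Diff. and mature libraries, so a difference from hepatoblasts was built into its selection. Orm2 was lower in Diff. than in mature hepatocytes (log2 fold change −2.79, standard error 0.50, adjusted p = 0.000254). Of the 75-base sequences of Orm1 and Orm2, 13.8% and 14.0% occur in another Orm gene, and Orm2 had 0.399% to 1.73% of the counts of Orm1 in Diff. and mature libraries, so its low counts are uncertain. Orm3 had 17, 34, 9 and 24 counts in mature hepatocytes, 4, 0, 0 and 3 in Diff. hepatocytes and 2, 1, 0 and 0 in hepatoblasts. Orm3 passed the filter only through the mature libraries, so a difference was built into its selection before the test. It was called higher in mature hepatocytes than in hepatoblasts (ratio of summed counts 55.4, 95% exact interval 18.3 to 274, adjusted p = 3.99e-05) and lower in Diff. than in mature hepatocytes (log2 fold change −3.99, adjusted p = 0.000347). These log2 values moved from 5.52 to 6.37 without hepatoblast replicate 1 and from −3.99 to −4.71 without Diff. replicate 1. A difference between Diff. hepatocytes and hepatoblasts was not detectable at this depth (ratio 3.29, interval 0.75 to 19.7). Orm1 held at least 98.1% of the Orm RPKM in every Diff. and mature library.

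Lcn2 (ENSMUSG00000026822, chromosome 2 from 32384633 to 32388252, minus strand) encodes lipocalin-2, which binds bacterial siderophores and so withholds iron. Its promoter window from RefSeq (chr2:32387690-32387989, minus strand) is shown because Lcn2 was among the members with the highest RPKM in Diff. hepatocytes. The capitals mark the C/EBP match.
Lcn2: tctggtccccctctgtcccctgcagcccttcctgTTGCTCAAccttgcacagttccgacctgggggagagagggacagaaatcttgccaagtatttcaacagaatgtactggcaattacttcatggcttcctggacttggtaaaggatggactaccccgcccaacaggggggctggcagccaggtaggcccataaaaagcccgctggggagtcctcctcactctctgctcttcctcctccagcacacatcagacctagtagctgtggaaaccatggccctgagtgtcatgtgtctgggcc

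Lcn2 had 23.5, 12.8, 15.2 and 20.02 CPM in the hepatoblast libraries, 1387, 416, 903 and 607 CPM in the Diff. libraries and 3.91, 19.0, 5.49 and 3.04 CPM in mature hepatocytes. Every Diff. library lay far above every other library, and mature replicate 2 reached into the hepatoblast range. Lcn2 rose 46.4-fold in culture (log2 fold change 5.54, standard error 0.57, adjusted p = 2.52e-06). It was 105-fold higher in Diff. than in mature hepatocytes (6.72, standard error 0.61, adjusted p = 5.62e-07), or 7.63 on the log2 scale without mature replicate 2. Mature hepatocytes were not called lower than hepatoblasts (−1.18, standard error 0.51, adjusted p = 0.0529). They were called lower without mature replicate 2 (−2.11, adjusted p = 0.000711) and with library totals (−2.01, adjusted p = 0.00426). Neutrophils store lipocalin-2, and the 9 neutrophil markers summed to 32.9 to 472 CPM in the hepatoblast libraries, 8.53 to 181 CPM in the Diff. libraries and 0.449 to 1.37 CPM in mature hepatocytes, where Mmp8 was at 0. Among the Diff. libraries, the neutrophil, bile duct and mesenchymal sums were each highest in replicate 1, as was Lcn2. Only the bile duct sum had the same order of all Diff. libraries as Lcn2. The neutrophil sum was lowest in replicate 3 (8.53 CPM), where Lcn2 had 903 CPM. The part of these cell types in the Lcn2 level was not tested.

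The pentraxins are pattern-recognition proteins of 5 identical subunits, and both genes lie on chromosome 1. Apcs (ENSMUSG00000026542, 172893961 to 172895041, minus strand) encodes serum amyloid P component, the main acute-phase pentraxin of the mouse. Crp (ENSMUSG00000037942, 172698055 to 172833031, plus strand) encodes C-reactive protein. The Apcs window (chr1:172895005-172895304, minus strand) is shown as the only one with the STAT motif, in capitals.
Apcs: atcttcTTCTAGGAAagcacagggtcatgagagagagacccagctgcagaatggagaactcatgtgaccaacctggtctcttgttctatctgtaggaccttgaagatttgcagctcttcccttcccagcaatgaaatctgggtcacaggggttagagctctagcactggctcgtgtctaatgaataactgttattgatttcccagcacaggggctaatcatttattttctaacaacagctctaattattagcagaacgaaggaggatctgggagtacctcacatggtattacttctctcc

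Apcs had 21.96, 22.4, 33.1 and 34.1 CPM in the hepatoblast libraries, 582, 490, 544 and 558 CPM in the Diff. libraries and 65.5, 110.4, 76.6 and 38.8 CPM in mature hepatocytes. The groups did not overlap, and the Diff. libraries lay within 1.19-fold of each other. Apcs rose 19.5-fold in culture (log2 fold change 4.29, standard error 0.28, adjusted p = 4.15e-08) and was 7.46-fold higher in Diff. than in mature hepatocytes (2.90, standard error 0.27, adjusted p = 5.68e-07). It was also called higher in mature hepatocytes than in hepatoblasts (1.39, standard error 0.25, adjusted p = 0.000252), but not with library totals (0.57, adjusted p = 0.0585) or in glmTreat (adjusted p = 0.0559).

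Crp had 38.8, 42.7, 60.2 and 72.6 CPM in the hepatoblast libraries, 246, 345, 282 and 288 CPM in the Diff. libraries and 466, 312, 367 and 389.7 CPM in mature hepatocytes. Both hepatocyte groups were above all hepatoblast libraries and overlapped each other. Crp rose 5.42-fold in culture (log2 fold change 2.44, standard error 0.20, adjusted p = 2.9e-07) and was 7.16-fold higher in mature hepatocytes than in hepatoblasts (2.84, standard error 0.20, adjusted p = 3.08e-08). Diff. and mature hepatocytes were not called different (−0.40, standard error 0.19, adjusted p = 0.0782), and the sign turned with library totals (0.13). Apcs held 71.3% to 80.5% of the pentraxin RPKM in Diff. hepatocytes, 45.1% to 49.7% in hepatoblasts and 14.8% to 38.2% in mature hepatocytes. Over all annotated exons, these shares were 83.5% to 89.4%, 62.5% to 66.8% and 26.1% to 55.7%, so the larger pentraxin in hepatoblasts depended on the length.

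Ordered by mean RPKM, the members stood differently in each group. In Diff. hepatocytes the order was Lcn2 (905 ± 462 RPKM, SD, n = 4), Apcs (559.8 ± 39.8), Saa3 (416 ± 112), Orm1 (236 ± 84.2) and Crp (171 ± 24.2), each of which overlapped its neighbor in range, followed by Saa4 (22.5 ± 0.607) with a range of its own. In mature hepatocytes it was Orm1 (928 ± 294), Saa1 (392.1 ± 604), Crp (226 ± 37.6), Saa4 (190.3 ± 73.0), Saa2 (164 ± 272.1) and Apcs (75.0 ± 30.5), again with overlap between neighbors. The places of Saa1 and Saa2 rested on mature replicate 2 (1296 and 571.5 RPKM). In the other 3 libraries, Saa1 had 38.2 to 135 RPKM, below Crp and Saa4 in each, and Saa2 had 14.1 to 37.3 RPKM, below Apcs in each. Lcn2 (8.59 ± 8.19) was the last but one there. In hepatoblasts, Saa3 (35.7 ± 12.2), Saa4 (35.7 ± 8.40), Crp (31.6 ± 9.29), Apcs (28.7 ± 6.82) and Lcn2 (19.5 ± 5.27) overlapped, and the other 5 genes had a mean of at most 0.512 RPKM. Of the 9 pairs of neighbors, 3 were apart in Diff. hepatocytes, 2 in mature hepatocytes and 2 in hepatoblasts. The order also depended on the length. Over all annotated exons, Apcs (559.8 RPKM) stood before Lcn2 (316 RPKM), Orm1 (236 RPKM) and Saa3 (88.7 RPKM) in Diff. hepatocytes, and Saa4 (35.7 RPKM) stood before Apcs (28.7 RPKM), Crp (15.5 RPKM) and Saa3 (7.61 RPKM) in hepatoblasts.

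Within the Diff. and the mature group, most members were highest in the same library. Mature replicate 2 had the highest CPM of its group in 9 of the 10 members, all but Crp, while 25.4% of all tested genes were highest there. Its median log2 CPM of the members was 1.02 above the mean of the other 3 libraries, against 0.00 over all genes. Diff. replicate 1 was highest in 9 of 10 members, again all but Crp, where 32.7% of all genes were highest, with a median of 0.96 above the other 3 libraries. Some of these leads were narrow or rested on few counts. Saa4 had 47.95 CPM beside at most 47.78 CPM, and Apcs had 581.5 CPM beside at most 558.4 CPM. Orm3 had 4 counts beside at most 3, and Saa2 had 7 counts. The 17 other positive acute-phase genes had medians of −0.03 in mature replicate 2 and 0.11 in Diff. replicate 1. Several genes of that list did stand highest in mature replicate 2, such as Lrg1 with 877 CPM beside 388 to 588 CPM, and Serpina3n with 561 CPM beside 320.5 to 379 CPM. Hp, Hpx, Steap4, Itih3 and Itih4 were highest there too, and the rest of the list was not. Mature replicate 2 had the lowest neutrophil sum of its group (0.449 CPM) and 223 CPM of macrophage markers within the range of 190 to 349 CPM. Diff. replicate 1 held the highest sums of its group for macrophage, neutrophil, bile duct and mesenchymal markers (the last with 1996 CPM beside 852 to 1363 CPM), and their part in its member levels was not tested. When hepatoblast replicate 1, Diff. replicate 1 and mature replicate 2 were left out together, a choice made after seeing the data, 6, 10 and 9 members were called in the 3 comparisons in the order above, with Lcn2 as the addition in mature hepatocytes against hepatoblasts (−1.93, adjusted p = 0.000177).

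**Figure D4:**
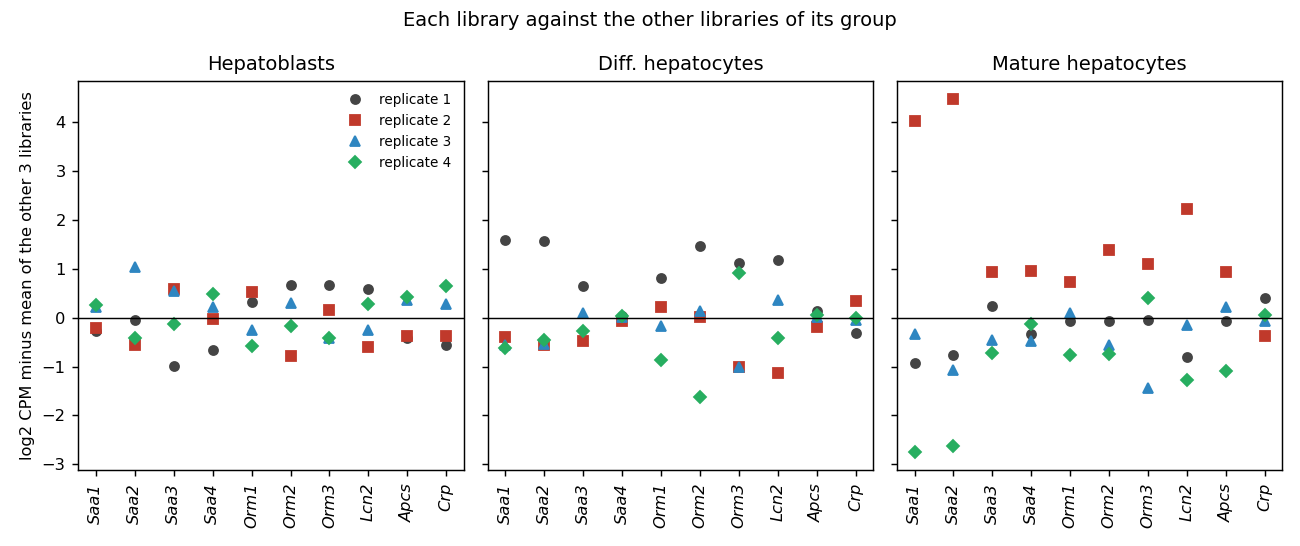
Log2 CPM of each member in a library minus the mean of the other 3 libraries of its group, with 1 panel for each group and 1 symbol for each replicate. Replicate 2 of the mature hepatocytes reaches 4.01 for Saa1 and 4.47 for Saa2, and Crp is the member on which neither mature replicate 2 nor Diff. replicate 1 stands highest.

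Other acute-phase genes were measured in the same libraries. Counts of called genes in this and the following lists stand beside the shares over all tested genes. These were 14.9% higher and 14% lower in Diff. hepatocytes against hepatoblasts and 20.1% and 24.7% in mature hepatocytes against hepatoblasts. In Diff. against mature hepatocytes they were 20.2% and 15.6%. Of 17 further positive acute-phase genes, 13 were called higher and 0 lower in Diff. hepatocytes against hepatoblasts, where edgeR had 1 lower at an unadjusted p under 0.05 and DESeq2 called 0 lower. The median log2 fold change was 2.58. In mature hepatocytes against hepatoblasts 12 were higher and 2 lower (median 1.87), and in Diff. against mature hepatocytes 6 were higher and 2 lower (median 0.68). Serpina3n, a serine protease inhibitor, had means of 3.17 CPM in the hepatoblast libraries, 1345 CPM in the Diff. libraries and 399 CPM in mature hepatocytes. Haptoglobin (Hp), the hemoglobin scavenger, had 55.7, 8377 and 4307 CPM. Lrg1 had 0.832, 244 and 603 CPM, and Hamp, the iron-regulating hormone hepcidin, had 9.54, 112 and 1444 CPM. Both were thus called lower in Diff. than in mature hepatocytes, like the Orm genes (log2 fold change −1.30 and −3.69). Lbp, which carries lipopolysaccharide, was called higher in Diff. than in mature hepatocytes (2.89), as were Il1rn (4.66) and Cd14 (3.47), in the direction of Saa3, Lcn2 and Apcs.

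Of 6 negative acute-phase genes, whose RNA is known to decline in the response, 2 were higher and 1 lower in Diff. hepatocytes against hepatoblasts, 4 were higher and 1 lower in mature hepatocytes against hepatoblasts, and 1 was higher and 3 lower in Diff. against mature hepatocytes (medians 0.53, 1.45 and −0.88). Lower in Diff. than in mature hepatocytes were Serpina6, the corticosteroid carrier (7.34 against 240.1 CPM), Ttr, the thyroxine carrier (1059 against 7897 CPM), and Alb. Ahsg, or fetuin-A, was the higher gene (22733 against 9164 CPM). Serpina6 had 4437 CPM in hepatoblasts and was the gene called lower in both comparisons with hepatoblasts.

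The genes of cytokine signalling did not move in one direction. Of 32 genes, 7 were called higher and 11 lower in Diff. hepatocytes against hepatoblasts (median −0.23), 7 and 7 in mature hepatocytes against hepatoblasts (median −0.03), and 6 and 10 in Diff. against mature hepatocytes (median −0.20). The shares over all tested genes were 14.9% and 14%, 20.1% and 24.7%, and 20.2% and 15.6% in the same order. Among the ligands, Il6 had 88 counts over the hepatoblast libraries and 0 counts in the Diff. libraries, which allows up to 3 counts per library and makes Il6 at least 5.21-fold lower. Of the 88 counts, 66 were in hepatoblast replicate 1, and without it the bound was 1.69-fold. With Il6 at that bound the median of the list was the same. Il1b had 2.02, 0.0339 and 1.80 CPM and Tnf 0.966, 0.112 and 0.0901 CPM in the hepatoblast libraries, Diff. and mature hepatocytes, and both were called lower in culture, as was Il1a. Without hepatoblast replicate 1, which held the highest macrophage and neutrophil sums, the log2 fold change moved from −5.70 to −4.78 for Il1b and from −3.05 to −2.41 for Tnf, both still called. Lif, a relative of interleukin-6, was the ligand called higher in culture, and both it and Il1a were named after their values were seen. Osm was not called (adjusted p = 0.118).

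Of 8 receptors, 4 were called higher and 1 lower in Diff. hepatocytes against hepatoblasts. Il6ra rose from 10.8 to 82.1 CPM (log2 fold change 2.93, adjusted p = 1.41e-06), Il6st, which encodes gp130, from 69.2 to 216 CPM (1.64, adjusted p = 2.49e-07) and Osmr from 1.34 to 13.1 CPM (3.29, adjusted p = 5.15e-07). The fourth was Il1rap, the accessory chain of the interleukin-1 receptor, with 3.02 and 20.04 CPM (2.73). The receptor that fell was Lifr, a partner of gp130, with 186 and 89.5 CPM (−1.05), named here after its values were seen. Il1r1, the interleukin-1 receptor, was not called (106 and 86.5 CPM). Stat3 had 159, 206 and 174 CPM in hepatoblasts, Diff. and mature hepatocytes, and was not called in the comparisons with hepatoblasts. Cebpb was called higher in both hepatocyte groups (21.8, 55.3 and 199.7 CPM), whereas Cebpd was called higher in Diff. hepatocytes than in both other groups (8.72, 25.5 and 10.2 CPM). Of the 7 feedback and early-response genes, 6 were lower and 0 higher in culture, with 1 higher at an unadjusted p under 0.05 in edgeR and 0 in DESeq2. Socs3, the inhibitor that STAT3 induces, fell from 275 to 8.82 CPM (−4.96, adjusted p = 5.43e-08), Zfp36 from 493 to 60.9 CPM (−3.02) and Junb from 387 to 49.2 CPM (−2.98). In mature hepatocytes, Socs3 had 111 CPM and was called lower than in hepatoblasts. Zfp36 had 491 CPM and Junb 375 CPM there, and neither was called against hepatoblasts.

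**Figure D5:**
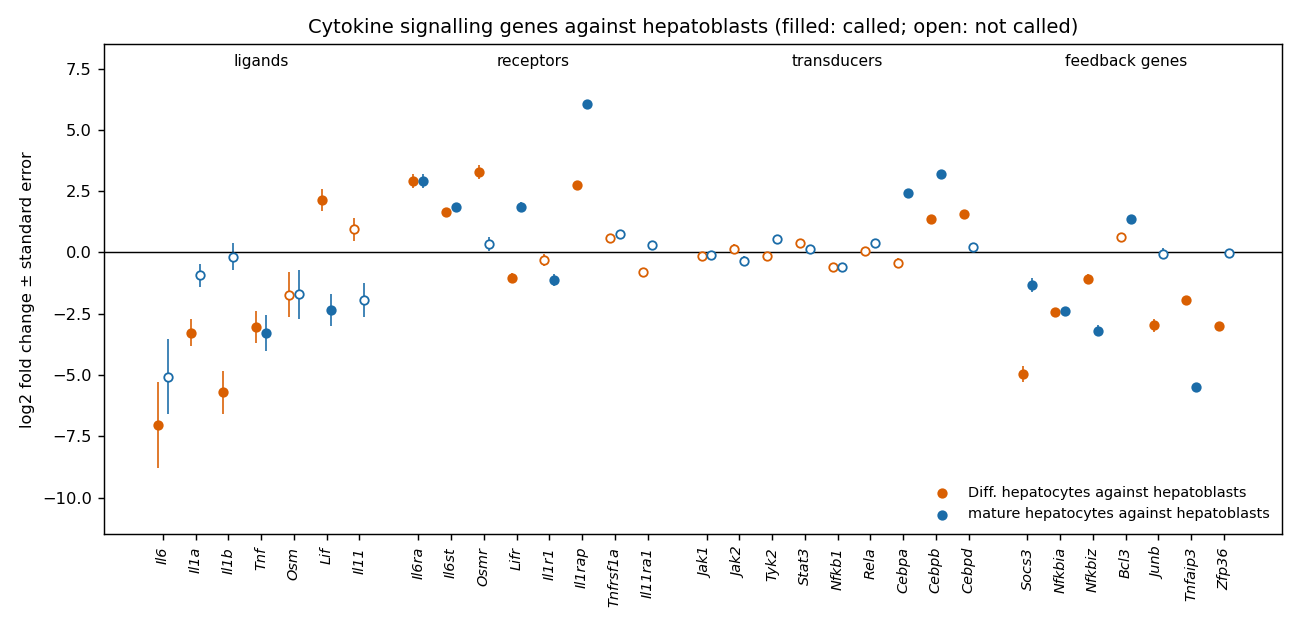
Log2 fold change with standard error of the cytokine signalling genes, all but 1 of the list, grouped by role, in Diff. and in mature hepatocytes against hepatoblasts, with filled points for called genes. The fitted value of Il6 in Diff. hepatocytes rests on 0 counts and is no measure of size, Il6ra, Il6st and Osmr lie above 0 in culture (2.93, 1.64 and 3.29) and Socs3 lies at −4.96.

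Of 9 genes known to respond to glucocorticoids, 5 were called higher and 2 lower in Diff. hepatocytes against hepatoblasts, beside 14.9% and 14% of all tested genes. The counts were 5 and 1 in mature hepatocytes against hepatoblasts (20.1% and 24.7% of all tested genes). They were 4 and 2 in Diff. against mature hepatocytes (20.2% and 15.6%). The culture medium held dexamethasone, the mature hepatocytes were not cultured, and the part of dexamethasone was not tested. Zbtb16 rose from 1.40 to 116 CPM (log2 fold change 6.37), Sgk1 from 35.4 to 184 CPM (2.38), Fkbp5 from 86.8 to 269.8 CPM (1.64) and Tsc22d3 from 20 to 41.1 CPM (1.04), with Errfi1 as the fifth (1.55), while Mt2 fell from 277 to 28.4 CPM (−3.28) and Dusp1 from 63.5 to 29.3 CPM (−1.12). Fkbp5 had 56.2 CPM and Zbtb16 34.5 CPM in mature hepatocytes, both less than in culture. The receptor gene Nr3c1 had 57.4, 63.2 and 126 CPM and was not called in culture. Of 8 genes for receptors of the members' proteins, 2 were higher (Lrp2 and Cd36) and 1 lower (Slc22a17, log2 fold change −3.06) in culture. Lrp2, the megalin receptor that takes up lipocalin-2, had 2.25, 46.1 and 3.97 CPM, and Cd36, one of the scavenger receptors for serum amyloid A, had 4.95, 35.5 and 32.5 CPM.

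For each member, the 3 genes with the smallest root mean square difference of centred log2 CPM over the 12 libraries were taken from 8697 genes, as a description of likeness that holds no test. Saa1 and Saa2 were the nearest to each other (0.72), and Ugt2b38 was the next for both. The nearest of Saa3 were Klhl13 (0.40), Smoc2 (0.50) and Trpm4 (0.52), and those of Lcn2 were Cemip (0.83), Plcl1 (0.84) and Myh11 (0.87). Orm1 was nearest to Tat (0.61), Etnppl (0.64) and Aspg (0.67), of which Tat encodes tyrosine aminotransferase. The nearest of Apcs were Igfbp1 (0.39), Pfkfb1 (0.47) and Ddit4 (0.47). Crp had the closest of all neighbors, with Zhx3 (0.16), Erbb3 (0.19) and Klf15 (0.21). The nearest of Saa4 were Homer2 (0.28), Ccdc157 (0.29) and the complement gene C8b (0.30). Between members, Saa3 was nearer to Lcn2 (1.07) and Apcs (1.27) than to any other Saa gene (3.34 or more). The prior count of 2 compresses the differences of genes with few counts, so that values for Saa1, Saa2 and the Orm genes rest in part on it.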

How the data were processed

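RNA of 12 libraries, 4 each of Hepatoblasts, Diff. hepatocytes and Mature hepatocytes, was read as 75-base single reads from strand-specific poly(A) libraries. The authors mapped the reads to GRCm38 and counted them on genes of Ensembl release 92 with STAR (2.5.2b in the submitters' processing notes), and what they deposited is the unnormalized counts of reads on each gene. The strand setting of the counts is not given in the sources used here.

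The members, gene lists and tests were chosen with earlier results of these data known. Libraries were assigned to groups by their labels. The analysis used edgeR 4.0.16 under R 4.3.3 (TMM, a filter of more than 10 counts in at least 1 library, quasi-likelihood test, 1 fit over the 12 libraries with the group as its term) and DESeq2 1.42.0. At least 99.92% of each library's counts were on tested genes. Log2 CPM used a prior count of 2. Lengths are those of the principal transcript in GENCODE release M21. Sequencing depth gives a floor of 3 counts per library for a gene at 0. Intervals of ratios are exact conditional binomial intervals at 95% and cover counting error only. The two-sided exact permutation test over 70 assignments of 8 libraries has a smallest p of 0.0286, which each pair of groups that did not overlap reached. The fit was tested on simulated data.

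All members were named. The values of 1 gene of the cytokine list are not reported here, though its counts enter those of the list. From each list, the text could name the 3 largest rises and falls among called genes with at least 10 CPM in the higher group, a fixed set of cytokine and glucocorticoid genes, the markers, and the 3 genes nearest to each member. The alternatives were DESeq2, glmTreat, DESeq2 size factors, library totals, other filters, fits of 8 libraries, the replicate block, fits without each library, and other lengths.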

Additional observations from a re-analysis of the deposited data

Results flagged for a closer look

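A library stood apart from the other 3 of its group, by Dixon's ratio of gap to range at the 95% level, in 7 of 33 groups of values tested, where chance flags about 1 in 20 groups. The ratio was taken on CPM and not on the log scale. The members share their libraries and their sum was tested too, so the flags are not independent of each other. In mature replicate 2 these were Saa1 with 789.2 CPM (the other 3 libraries had 23.3 to 82.3 CPM), Saa2 with 372.6 CPM (9.19 to 24.3 CPM), Lcn2 with 19.0 CPM (3.04 to 5.49 CPM) and the summed level of the 10 members with 3273 CPM (1292 to 1625 CPM). In Diff. replicate 1 they were Saa1 with 1.124 CPM (0.296 to 0.344 CPM) and Saa2 with 0.3026 CPM (0.0431 to 0.0493 CPM), which rest on 26 and 7 counts. Saa4 was lower in Diff. replicate 2, with 45.24 CPM beside 47.6 to 47.9 CPM, a gap of small absolute size in a group with little spread.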

How the results depend on the processing

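The members' calls held their direction and side of the threshold under DESeq2 size factors, under no filter beyond 1 count and in the fits without 1 library, except Lcn2 in mature hepatocytes against hepatoblasts, which was called lower without mature replicate 2 (−2.11). The replicate numbers were not taken as pairs, since deviations of equal numbers did not correlate over 0.1 in every pair: they correlated between −0.06 and 0.32 for hepatoblasts with Diff. hepatocytes (over 0.1 in 3 of 4 pairs), between −0.03 and 0.09 for hepatoblasts with mature and between −0.08 and 0.09 for Diff. with mature hepatocytes. Unequal numbers correlated between −0.35 and 0.24 for hepatoblasts with Diff. hepatocytes, so a pairing of these groups remains possible. With the replicate block, 6, 9 and 9 members were called, as without it. With at least 10 counts in every sample, 5 members could be tested, of which 4 were called in mature hepatocytes against hepatoblasts and 4 in Diff. against mature hepatocytes, where fewer members were tested. DESeq2 called 8 members in each of those comparisons and gave no adjusted p for Saa2. Library totals turned Crp in Diff. against mature hepatocytes to 0.13, ended the call of Apcs (0.57) and called Lcn2 lower (−2.01) in mature hepatocytes against hepatoblasts, and leaving out 3 libraries together, chosen after seeing the data, turned Saa1 in Diff. hepatocytes against hepatoblasts to −0.0401, and the cause was not tested. The glmTreat test called 2966, 5750 and 4221 genes in the 3 comparisons where the quasi-likelihood test called 5145, 7971 and 6362. Leaving out 1 library moved the log2 fold change of Saa1 between 7.45 and 9.93 and that of Saa2 between 5.94 and 8.93 in mature hepatocytes against hepatoblasts. Lengths over all annotated exons, also added later, changed the order of the levels and the family shares, and the values of Il6, Il1b and Tnf without a hepatoblast library were added later too. Levels of at most 26 counts per library limit Saa1 and Saa2 outside mature hepatocytes, Orm1 and Orm2 in hepatoblasts, and Orm3 in hepatoblasts and Diff. hepatocytes. Orm3 had at most 34 counts in a mature library.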
